A study of Mus musculus with 8 samples.

Results

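Meg3, Rian, Miat and Snhg11 are long noncoding RNAs known from brain, and their levels are described here across the nuclei of embryonic mouse cortex. The members were chosen by gene symbol, and all 4 were present among the 14166 genes of the deposited tables. Meg3, Rian and Miat are typed as long noncoding RNAs in both annotations used, and Snhg11 is typed as noncoding in RefSeq but as protein coding in GENCODE. The sum of unique molecular identifiers (UMIs, each a tag for 1 captured RNA molecule) over all nuclei was 22267 for Meg3, 13411 for Rian, 19815 for Miat and 6303 for Snhg11.

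Nuclei came from the flash-frozen dorsal telencephalon, the embryonic roof of the forebrain that forms the cortex, of C57BL/6J mice at E15.5. Of 8 samples, 4 were wildtype and 4 were labelled as knockouts of the noncoding RNA gene Pantr2 (Pantr2-/-), and no other allele or agent was named for either group. The labels do not say how many embryos a sample holds, so p-values measure the spread between samples, which may be partly technical. Libraries were made with a droplet method that tags the 3′ end of polyadenylated RNA.

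The tables held 67319 nuclei, 33781 wildtype and 33538 knockout, with 20446698 to 34083796 UMIs per sample and a single library date. Pairs of samples shared 8 to 30 cell barcodes. The deposited tables place each nucleus in 1 of 7 clusters. By their markers, cluster 1 was upper-layer neuron-like (Cux1, Cux2, Pou3f1), clusters 2 and 3 were deep-layer neuron-like (Bcl11b and Fezf2 in cluster 2, Tle4 and Tbr1 in cluster 3), cluster 4 was apical progenitor-like (11 markers, Pax6 and Hes5 among them) and cluster 5 was intermediate progenitor-like (Eomes, Neurog2, Btg2, Mfap4, Gadd45g). Clusters 6 and 7 met too few of those markers and are left unnamed. The genes that led them by fold were Tafa1, Tafa2 and Grik1 in cluster 6, and Gm32647, Zfp385b and Slit3 in cluster 7. Because the clusters were made from the expression of these same nuclei, differences between them are a description with no test. Pantr2 itself is not analysed here, so the genotype labels were not checked against the deleted gene.

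Meg3 and Rian lie on chromosome 12 in the imprinted Dlk1-Dio3 domain, where each parent's copy is used for a different set of genes. Meg3, Rian and Mirg are expressed from the maternal copy, and Dlk1, Rtl1 and Dio3 from the paternal copy. Rian hosts small nucleolar RNAs and Mirg hosts microRNAs, and transcription that starts at Meg3 is thought to run on through both. Miat, also called Gomafu, stays in the nucleus and carries repeats of a short motif that binds the splicing factors Sf1 and Qk. Snhg11 is a host gene of small nucleolar RNA, and its spliced RNA is found mainly in neurons.

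A promoter and a repeat carry these features. The first sequence is the Meg3 promoter from RefSeq (GRCm38.p6, chr12:109540746-109541045, plus strand), shown because Meg3 and Rian moved together in the samples described below. Its capitals mark the only match to TGACGTCA, the cyclic AMP response element, whose first base is 57 bases before the start site.
Meg3 promoter: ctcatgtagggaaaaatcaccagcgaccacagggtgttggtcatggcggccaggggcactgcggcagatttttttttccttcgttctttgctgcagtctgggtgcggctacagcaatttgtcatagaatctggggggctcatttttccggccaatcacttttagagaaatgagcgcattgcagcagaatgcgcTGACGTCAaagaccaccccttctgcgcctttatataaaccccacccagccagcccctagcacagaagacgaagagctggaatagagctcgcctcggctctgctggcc

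A TATATAA stretch follows, beginning 27 bases before the start. Of 32851 promoters of that length in the table, 1.79% held TGACGTCA on either strand (a palindrome, which contains the shorter TGACG), and 20.81% held TGACG. The promoters of Rian, Miat and Snhg11, and the window at the alternative RefSeq start of Meg3, held neither. Rian's promoter held 1 CAGATG, present in 17.15% of promoters, and Snhg11's held 1 CAGCTG, present in 16.3%, both searched on both strands. These matches are letters in a window, not measured sites.

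The second sequence is the stretch of Miat richest in its repeat. The longest Miat transcript in GENCODE M21, Miat-205, has 9163 bases and holds 11 copies of ACTAAC, searched on the transcript's own strand. That is 1.2 copies per kilobase, the place 9 by density among 24356 transcripts of 3 kilobases or more, whose median is 0 copies. The longest transcripts of Meg3 and Snhg11 held 1 copy each and that of Rian 0. The 200 bases from transcript position 4873 to 5072 hold 4 copies, in capitals.
Miat repeat: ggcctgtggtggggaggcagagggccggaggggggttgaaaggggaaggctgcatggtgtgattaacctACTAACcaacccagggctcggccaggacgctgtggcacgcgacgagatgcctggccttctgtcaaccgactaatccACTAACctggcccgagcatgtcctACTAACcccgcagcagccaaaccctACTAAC

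Levels are CPM, the UMIs of a gene scaled to a fixed total of UMIs in the same sample and cluster, given as mean ± SD over the 8 samples where no group is named. Since they are not scaled by transcript length, levels were compared between clusters and samples but not between genes. The label neuronal described the members only in part. Meg3 and Rian were high in the deep-layer-like clusters and in clusters 6 and 7, but as low in the upper-layer-like neurons as in the progenitors. Miat was highest in the intermediate progenitor-like cluster, and Snhg11 was concentrated in a small set of nuclei, most of them in cluster 6.

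**Figure D1:**
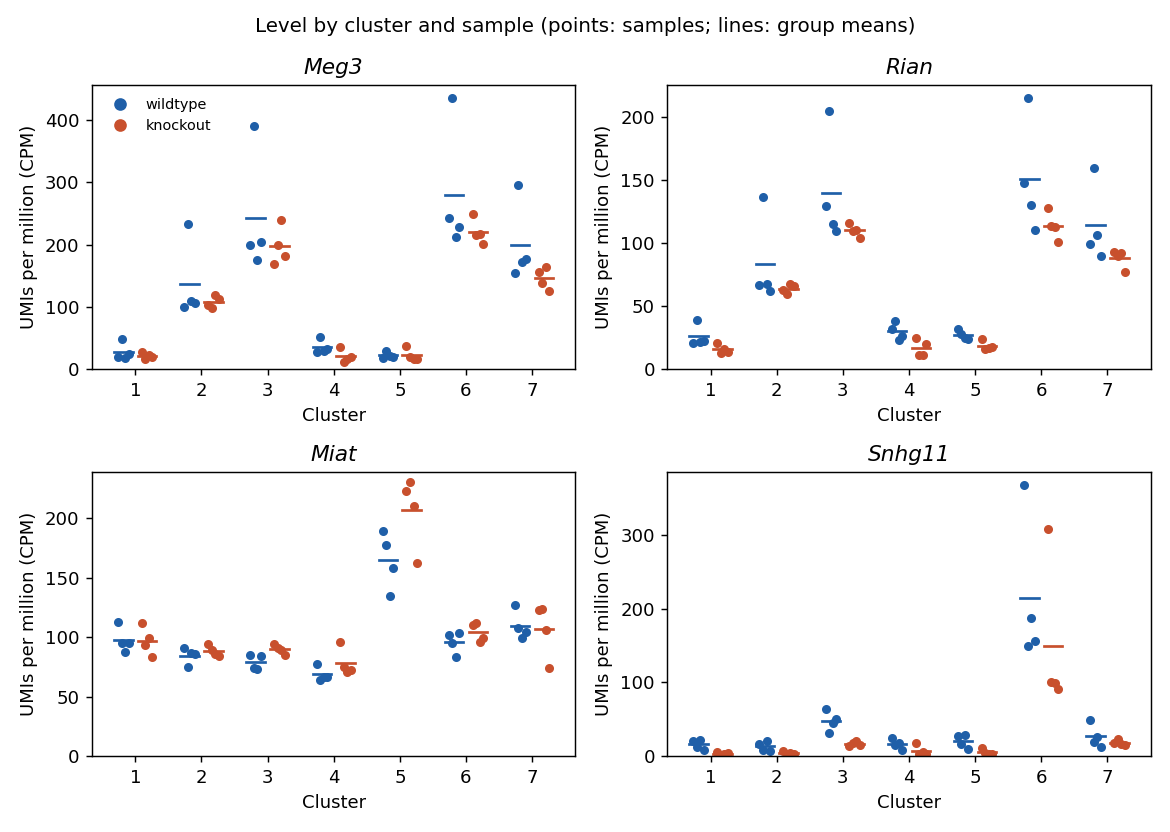
Level of each RNA in CPM (vertical axis, starting at 0) in clusters 1 to 7 (horizontal axis), with 1 point per sample and a line at the group mean for the 4 wildtype (blue) and 4 knockout (orange) samples. Meg3 and Rian share an order of clusters with 1 wildtype sample far above the rest, Miat peaks in cluster 5, and Snhg11 is highest in cluster 6.

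Meg3 was highest in cluster 6, at 250.1 ± 76.2 CPM. It stood at 219.7 ± 72.0 CPM in cluster 3, 172.7 ± 52.2 CPM in cluster 7 and 123.0 ± 44.8 CPM in cluster 2. It then dropped to 28.3 ± 12.5 CPM in the apical progenitor-like cluster 4, 24.8 ± 10.2 CPM in cluster 1 and 22.7 ± 7.4 CPM in cluster 5. The step from cluster 2 to cluster 4 was the 1 place in this order where the ranges of the 8 samples did not overlap. Within a sample, cluster 6 was 7.06 to 17.2 times cluster 4, and cluster 3 was 6.07 to 11.8 times cluster 1. Cluster 3 exceeded cluster 1 in Meg3 in 8 of 8 samples, while the upper-layer-like neurons exceeded the intermediate progenitor-like nuclei in only 5 of 8.

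Rian followed the same order at the top, with 132.6 ± 36.5 CPM in cluster 6, 125.3 ± 33.0 CPM in cluster 3, 101.4 ± 25.1 CPM in cluster 7 and 73.9 ± 25.7 CPM in cluster 2. Clusters 4, 5 and 1 had 23.7 ± 9.4, 23.2 ± 5.7 and 21.1 ± 8.3 CPM, differences within the spread between samples. Across the 28 wildtype values of sample and cluster, Meg3 and Rian had a Pearson r of 0.985 on the log2(CPM + 0.5) scale, and 0.993 across the 28 knockout values. The points share libraries and clusters, so these are descriptions.

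Shares of nuclei separated the same high and low clusters, though not in the same order within each set. After each nucleus was thinned to 1400 UMIs, a Meg3 UMI was found in 25.7% of nuclei of cluster 6 and 25.4% of cluster 3 but in 3.05% of cluster 1, 3.10% of cluster 4 and 2.59% of cluster 5. The unthinned shares were 45.5%, 46.1%, 5.37%, 6.81% and 5.09%. For a gauge of free RNA, the globin transcript Hbb-bs, which belongs to red blood cells, was found in 24.9% to 30.9% of thinned nuclei in every cluster, and in 46.1% to 47.5% before thinning. The median depth per cluster was 2349 to 3121.5 UMIs. The globin share was alike in all clusters, and the Meg3 share was not. In clusters 1, 4 and 5 the Meg3 shares were far below the globin share, and low expression there cannot be told apart from free RNA. The same holds for Rian, found in 2.94%, 2.82% and 3.27% of thinned nuclei of clusters 1, 4 and 5. Meg3 and Rian fell in the same nuclei more often than independent detection gives in some clusters and hardly so in others. In cluster 4, 34 thinned nuclei held both against 10.4 expected, and in cluster 1, 37 against 15.1. In cluster 5, where both were as sparse, 8 held both against 6.63 expected, and in cluster 3, where both were common, 507 against 470.0.

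The genes whose pattern was most like Meg3 were its neighbours. Among 8250 genes with at least 20 CPM in a cluster, the 5 highest correlations over the 28 wildtype values belonged to Gm37899 (r = 0.992), Mirg (0.989), Rtl1 (0.979), B830012L14Rik (0.973) and Unc13b (0.941), a gene of synaptic vesicle priming. The first 4 lie in the Dlk1-Dio3 domain, and Gm37899 and B830012L14Rik, annotated between Rian and Mirg, were added to the domain's list after their values were seen. In the knockout samples their r with Meg3 was 0.947 to 0.988. For Rian the same 4 neighbours led (0.969 to 0.983), followed by 9330162G02Rik (0.938). Rtl1 overlaps a transcript from the opposite strand, and whether the counting used strand was not given in the sources used here, so reads labelled Rtl1 cannot be assigned to a parental copy. The same limit applies where Meg3 overlaps the antisense gene Gm26906 and Miat the opposite-strand gene Gm26953.

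One wildtype library stood apart in this domain. Over all nuclei, the Meg3 level in wildtype replicates 1 to 4 was 102.3, 207.3, 113.7 and 109.7 CPM, and in knockout replicates 1 to 4 it was 93.1, 78.2, 102.4 and 94.0 CPM. Wildtype replicate 2 was thus 1.82 times the next highest of the other 7 samples, and the groups overlapped only between wildtype replicate 1 and knockout replicate 3. The Rian level was 71.9, 116.2, 75.3 and 62.8 CPM in wildtype and 58.3, 47.1, 54.9 and 56.8 CPM in knockout replicates 1 to 4. Again wildtype replicate 2 was the highest, at 1.54 times the next, and for Rian the groups did not overlap. The share of all genes without overlap is not given, here or for later statements on overlap, so these describe the values only.

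Of the 5 other genes of the domain whose sample values were tabled, 4 were also highest in that library and 1 was lowest. Mirg was at 62.2 CPM there against 26.9 to 35.1 CPM in the other 7 samples, Gm37899 at 65.7 against 26.7 to 41.4, B830012L14Rik at 28.3 against 12.1 to 16.7, and Rtl1 at 25.8 against 10.3 to 15.96 CPM. Dlk1, a membrane protein expressed from the paternal copy, was lowest in the same library at 0.245 CPM (6 UMIs), against 0.437 to 1.07 CPM elsewhere. Of the 6917 genes with a mean of at least 20 CPM, 4 were at 1.5 times or more the highest other sample in wildtype replicate 2, and those 4 were Meg3, Rian, Mirg and Gm37899. Each of the other 7 samples had 0 to 3 such genes and none of the domain. Within clusters, wildtype replicate 2 had the highest Meg3 level in 6 of the 7, at 1.48 to 1.94 times the next sample, the exception being cluster 5, where knockout replicate 1 was higher. Why this library differed was not tested.

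**Figure D2:**
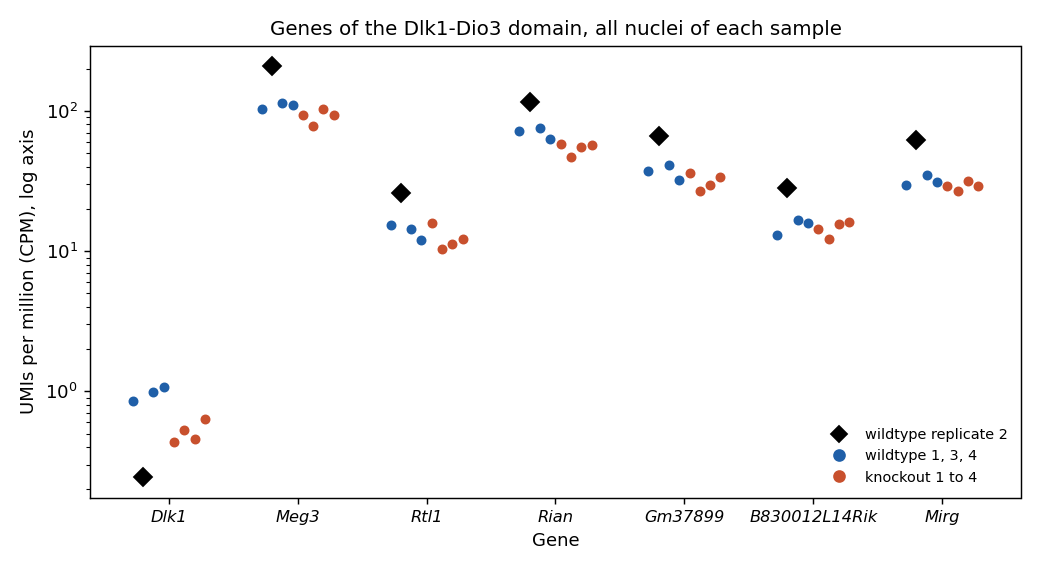
CPM over all nuclei (vertical log axis) for 7 genes of the Dlk1-Dio3 domain (horizontal axis), 1 point per sample, with the other wildtype samples in blue and the knockout samples in orange. The black diamond, wildtype replicate 2, is the highest of 8 samples for Meg3 (207.3 CPM), Rtl1, Rian, Gm37899, B830012L14Rik and Mirg and the lowest for Dlk1 (0.245 CPM).

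For knockout against wildtype, UMIs were summed per sample and tested with edgeR's quasi-likelihood test, with Benjamini-Hochberg adjustment over all genes tested. Over all nuclei, 0 of the 4 members passed an adjusted p of 0.05, where 5.26% of 13926 genes did. Called genes were lower in the knockout for 3.58% of all tested and higher for 1.67%. At an unadjusted p under 0.05 there were 3 members, beside 2666 of the 13926 genes. DESeq2 called 1 member, Rian, and called more of all genes than edgeR did. The knockout held fewer nuclei of cluster 6 (1955 against 3524), where Meg3, Rian and Snhg11 were highest, so values over all nuclei mix composition with level, and fewer cells of a type and less RNA per cell cannot be told apart there.

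Meg3 passed the test in none of the 8 fits by edgeR or by DESeq2. At an unadjusted p under 0.05 it passed in 3 of them, over all nuclei and in clusters 4 and 7. Meg3 stood there beside 2666 of 13926, 1907 of 11935 and 1021 of 10548 genes under that p. Over all nuclei its mean was 133.3 ± 49.6 CPM in wildtype and 91.9 ± 10.1 CPM in knockout (SD, n = 4 each), a log2 fold change of -0.52 ± 0.21 (SE) with an edgeR adjusted p of 0.200. Without wildtype replicate 2 the wildtype mean was 108.6 ± 5.8 CPM and the log2 fold change -0.23 (edgeR adjusted p = 0.272). In clusters 1, 2 and 3 the log2 fold changes of -0.40, -0.32 and -0.26 became 0.02, 0.04 and 0.07 without that library. Cluster 4 behaved differently: its wildtype values were 28.3, 52.2, 28.9 and 32.2 CPM and its knockout values 35.3, 12.6, 16.5 and 20.2 CPM. There knockout replicate 1 lay among the wildtype samples and the other 3 knockout samples lay below all of them. The log2 fold change in cluster 4 was -0.70 ± 0.30 (edgeR adjusted p = 0.265), and without knockout replicate 1 it was -1.13 (edgeR adjusted p = 0.0186).

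Rian was lower in the knockout in all 8 fits, with log2 fold changes from -0.81 to -0.31, but edgeR called it in none. At an unadjusted p under 0.05 it passed in 6 of 8 fits. In those 6, all genes under that p ran from 1021 of 10548 in cluster 7 to 2666 of 13926 over all nuclei. DESeq2 called Rian in 3 fits (all nuclei, cluster 1 and cluster 4). Over all nuclei the means were 81.5 ± 23.7 CPM in wildtype and 54.3 ± 5.0 CPM in knockout, a log2 fold change of -0.58 ± 0.17 (edgeR adjusted p = 0.0842). Without wildtype replicate 2 it was -0.36 (edgeR adjusted p = 0.0801). In cluster 1 the wildtype values were 20.9, 39.4, 21.8 and 22.9 CPM and the knockout values 20.9, 13.0, 16.2 and 14.03 CPM. The lowest wildtype sample was nearly level with the highest knockout sample. The fitted log2 fold change there was -0.75 ± 0.20 (edgeR adjusted p = 0.0526, or 0.0380 in the fit blocked on replicate number), and the groups did not overlap. The block takes same-numbered samples as pairs, an uncertain pairing drawn in part from these same counts. Unblocked, the difference passed without wildtype replicate 1 (edgeR adjusted p = 0.0410) and without knockout replicate 1 (0.0392). Without wildtype replicate 2 the difference moved to -0.47 (edgeR adjusted p = 0.119). In cluster 2 the difference of -0.37 came down to -0.03 without wildtype replicate 2. In cluster 4, where the log2 fold change was -0.81, leaving out knockout replicate 1 gave -1.12 (edgeR adjusted p = 0.0154). In cluster 5 the log2 fold change was -0.53, and leaving out the same library gave -0.66 (edgeR adjusted p = 0.0399). The part of free RNA in the Meg3 and Rian differences of clusters 1, 4 and 5 was not tested.

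The other genes of the domain stayed under the threshold too. Of 13 listed genes 12 were in the tables and 12 were tested over all nuclei, where edgeR called 0. There 2 (Meg3 and Rian) had an unadjusted p under 0.05, beside 2666 of all 13926 genes. DESeq2 called 1, Rian. Their median log2 fold change was -0.43, beside 0.00 over all genes tested. Per cluster, 7 to 11 of them were tested and edgeR called 0 in each, with 0 to 4 at an unadjusted p under 0.05. All genes under that p ran from 1021 of 10548 in cluster 7 to 2427 of 11538 in cluster 2. DESeq2 called 1 of the listed genes in clusters 1 and 4 and 0 in the others. Within 5 megabases of Meg3 by the deposited start positions, 2 of 84 tested genes (2.38%) were called over all nuclei.

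**Figure D3:**
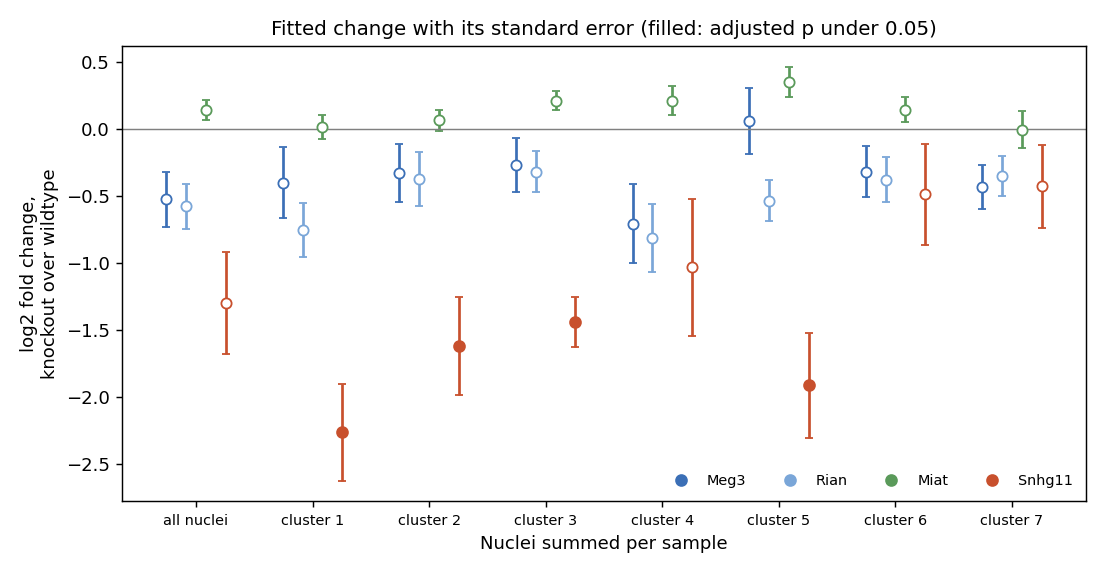
Log2 fold change of knockout over wildtype (vertical axis) with its standard error for the 4 RNAs, over all nuclei and in each cluster (horizontal axis). Filled points passed an edgeR adjusted p of 0.05, and they are Snhg11 in clusters 1, 2, 3 and 5, from -2.26 to -1.44.

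Miat had a different distribution. It was highest in the intermediate progenitor-like cluster 5, at 185.7 ± 33.7 CPM, and lowest in the apical progenitor-like cluster 4, at 73.6 ± 9.9 CPM. The range of cluster 5 did not overlap that of the next cluster, cluster 7 (108.0 ± 17.1 CPM). Clusters 6, 1, 2 and 3 lay between, at 100.2, 97.5, 86.4 and 84.4 CPM, and neighbours 6 and 1, and 2 and 3, differed by less than their spread. Within a sample, cluster 5 was 2.02 to 3.07 times cluster 4 and 1.53 to 2.46 times cluster 1, in 8 of 8 samples. Miat was thus higher in the intermediate progenitor-like cluster than in the apical progenitor-like cluster or the upper-layer-like neurons. After thinning, 21.7% of nuclei in cluster 5 held a Miat UMI against 9.38% in cluster 4, and before thinning 35.2% against 18.7%.

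The genes most like Miat by the same measure were Myt1 (r = 0.932 in wildtype and 0.909 in knockout), Cracd (0.913), A730020E08Rik (0.900), Snapc3 (0.896) and Aff4 (0.895). Myt1, a zinc-finger factor of neuronal differentiation, was at 481.5 CPM in cluster 5, 114.8 CPM in cluster 4 and 152.1 CPM in cluster 6. Miat had an r of -0.31 with Meg3 and -0.24 with Rian over the wildtype values.

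Within the apical progenitor-like cluster, Miat also differed along the cell cycle. The deposited cell cycle angle splits the 10948 nuclei of cluster 4 into ranges for G1/G0 (1580 nuclei), S (5734) and G2/M (3634). Miat was at 89.9 ± 20.9 CPM in G1/G0, 82.8 ± 10.0 CPM in S and 53.1 ± 10.3 CPM in G2/M. The G2/M value was below the S value and below the G1/G0 value in 8 of 8 samples, while G1/G0 exceeded S in 5 of 8. In G2/M it was 51.2, 39.6, 53.3 and 48.2 CPM in wildtype and 74.1, 48.5, 49.4 and 60.6 CPM in knockout replicates 1 to 4. Median depth was 2397 UMIs in G1/G0, 3097 in S and 2886 in G2/M, and Miat was highest in the shallowest range. Meg3 was at 37.1 ± 22.3 CPM in G1/G0, 29.3 ± 12.9 in S and 23.6 ± 10.8 in G2/M, differences within the spread between samples. In that order its means were 51.4, 37.0 and 27.9 CPM in wildtype and 22.8, 21.6 and 19.2 CPM in knockout. Knockout replicate 3 had 0 CPM of Meg3 in G1/G0. Meg3 in G1/G0 exceeded S in 7 of 8 samples and G2/M in 6 of 8. Rian was at 39.7 ± 20.2, 21.5 ± 9.7 and 21.3 ± 6.3 CPM, with G1/G0 above S, and above G2/M, in 7 of 8. These rest on 151 Meg3 and 162 Rian UMIs in G1/G0. Snhg11 showed no ordering held by all samples, with S above G2/M in 6 of 8.

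**Figure D4:**
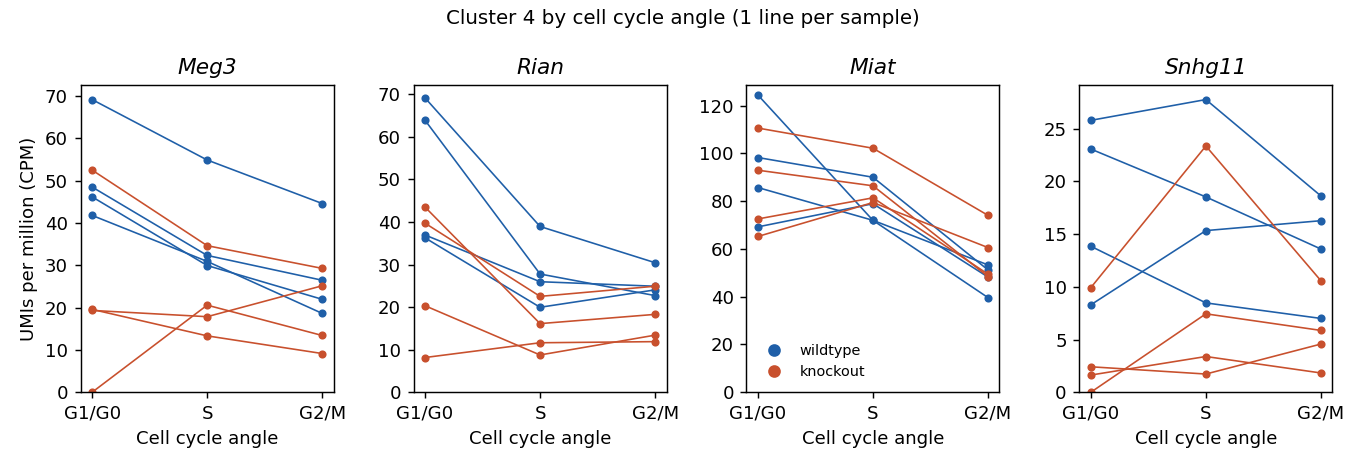
CPM (vertical axis, from 0, scaled per panel) of each RNA in cluster 4 nuclei of the G1/G0, S and G2/M angle ranges (horizontal axis), 1 line per sample (wildtype blue, knockout orange). All 8 Miat lines are lowest at G2/M, where the mean is 53.1 CPM against 82.8 CPM at S.

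Miat passed the test between genotypes in 0 of 8 fits by edgeR and by DESeq2. At an unadjusted p under 0.05 it passed in 2, clusters 3 and 5, beside 1825 of 11890 and 1054 of 10595 genes. Over all nuclei it was at 104.8, 92.1, 86.0 and 95.5 CPM in wildtype and 115.1, 109.1, 102.2 and 88.5 CPM in knockout replicates, a log2 fold change of 0.15 ± 0.07 (edgeR adjusted p = 0.319). In cluster 5 the wildtype values were 189.3, 177.6, 134.9 and 158.0 CPM and the knockout values 222.9, 230.6, 210.0 and 162.1 CPM. Knockout replicate 4 lay within the wildtype range and the other 3 lay above it. The log2 fold change was 0.35 ± 0.11 (edgeR adjusted p = 0.198), and without knockout replicate 4 it was 0.45 (edgeR adjusted p = 0.0425). In cluster 3 the groups did not overlap, with 73.3 to 84.6 CPM in wildtype and 84.7 to 94.6 CPM in knockout, but the log2 fold change of 0.21 ± 0.07 had an edgeR adjusted p of 0.147, and 3.36% of 11890 genes were called there.

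Of the 4 RNA-binding proteins linked to Miat, Celf3 was the one edgeR called. Celf3, an RNA-binding splicing regulator of neurons, was lower in the knockout in all 8 fits, from 232.3 ± 15.04 to 90.2 ± 2.7 CPM over all nuclei (log2 fold change -1.35, edgeR adjusted p = 1.9e-06). Its neighbourhood also held many called genes, 17 of 116 within 5 megabases (14.7%), and what part that has in the change of Celf3 was not tested. Sf1, Qk and Srsf1 were not called in any fit. Near Miat, 3 of 128 genes (2.34%) were called.

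Snhg11 was the member that edgeR called between genotypes, while DESeq2 called Rian as well. Snhg11 was called lower in the knockout in clusters 1, 2, 3 and 5, and it had a negative log2 fold change in the other 4 fits as well. In clusters 1, 2, 3 and 5 a UMI was found in 1.36%, 1.22%, 3.12% and 1.63% of thinned nuclei, far below the globin share. Low expression in those clusters cannot be told apart from free RNA, and the part of free RNA in their calls was not tested. The shares of genes called were 4.84%, 9.09%, 3.36% and 1.77% in clusters 1, 2, 3 and 5, and in each of them edgeR called 1 of the 4 members, Snhg11. Genes called lower made up 2.31%, 5.17%, 1.88% and 0.906% of those tested in clusters 1, 2, 3 and 5, and 3.12% in cluster 4. In clusters 4, 6 and 7, with 4.29%, 0.789% and 1.03% of genes called, edgeR called 0 of the 4 members. Genes called higher were 0.578% of those tested in cluster 7. In clusters 4, 6 and 7, in that order, 2, 1 and 2 members had an unadjusted p under 0.05. So did 1907 of 11935, 1043 of 10522 and 1021 of 10548 of all genes. DESeq2 called 1 member in cluster 4 and 0 in clusters 6 and 7.

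In the deep-layer-like cluster 3 Snhg11 was at 63.9, 32.2, 45.7 and 50.9 CPM in wildtype replicates 1 to 4 and 13.9, 18.4, 21.1 and 15.1 CPM in knockout replicates 1 to 4. The groups did not overlap, and the share of all genes without overlap is not given here. The fitted log2 fold change was -1.44 ± 0.19 (edgeR adjusted p = 0.00064), from 960 UMIs in wildtype and 297 in knockout. It passed in all 8 fits that left out 1 sample, with log2 fold changes from -1.58 to -1.29.

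In the upper-layer-like cluster 1 Snhg11 was at 20.2, 13.1, 22.4 and 8.38 CPM in wildtype and 5.96, 1.93, 2.71 and 3.83 CPM in knockout replicates. The groups did not overlap here either. The log2 fold change was -2.26 ± 0.36 (edgeR adjusted p = 0.00196), and it rested on few molecules, 276 UMIs in wildtype and 60 in knockout. It too passed in all 8 such fits, from -2.51 to -1.97. After thinning, 2.23% ± 1.05 of wildtype nuclei and 0.488% ± 0.255 of knockout nuclei held a UMI (SD, n = 4 each).

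In cluster 2 it was at 17.02, 8.94, 20.5 and 6.91 CPM in wildtype and 7.12, 3.37, 4.79 and 2.90 CPM in knockout replicates. Knockout replicate 1 exceeded wildtype replicate 4, so the groups overlapped. The fitted log2 fold change was -1.62 ± 0.36 (edgeR adjusted p = 0.0122), and the call was lost without knockout replicate 2 (edgeR adjusted p = 0.0527). In the intermediate progenitor-like cluster 5 it was at 27.4, 16.9, 28.3 and 10.0 CPM in wildtype and 10.8, 4.24, 3.29 and 2.92 CPM in knockout, with wildtype replicate 4 below knockout replicate 1. The log2 fold change was -1.91 ± 0.39 (edgeR adjusted p = 0.0236). That call was lost in 5 of 8 fits with a sample left out, with edgeR adjusted p-values from 0.0591 to 0.108 (leaving out wildtype replicates 1 and 3 and knockout replicates 2, 3 and 4, each in turn).

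Over all nuclei Snhg11 was at 69.4, 31.2, 50.1 and 32.7 CPM in wildtype and 37.1, 12.7, 13.96 and 11.1 CPM in knockout replicates. Knockout replicate 1 was above both of the lower wildtype samples, and the other 3 knockout samples were below all wildtype samples. The fitted log2 fold change was -1.30 ± 0.38 (edgeR adjusted p = 0.0849). Blocked on replicate number, an uncertain pairing drawn in part from these same counts, it was -1.37 (edgeR adjusted p = 0.0018). Unblocked and without knockout replicate 1 it was -1.83 (edgeR adjusted p = 0.00817). In cluster 4 the log2 fold change was -1.03 ± 0.51 (edgeR adjusted p = 0.364), and without knockout replicate 1 it was -2.10 (edgeR adjusted p = 0.00932). In cluster 7 it was -0.42 ± 0.31 (edgeR adjusted p = 0.751).

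Cluster 6 held the highest level of Snhg11, 182.4 ± 102.7 CPM against 32.6 ± 18.8 CPM in cluster 3 and 8.95 to 22.7 CPM in the others. It also held the widest spread, with 367.6, 149.7, 187.2 and 156.0 CPM in wildtype and 307.7, 100.1, 98.7 and 91.8 CPM in knockout replicates. The highest sample of each group was replicate 1. The log2 fold change was -0.48 ± 0.38 (edgeR adjusted p = 0.748). Blocked on replicate number, with the same uncertain pairing, it was -0.58 (edgeR adjusted p = 0.00875). Relative to cluster 6 of the same sample, cluster 1 stood at 5.37% to 11.97% in wildtype and 1.93% to 4.17% in knockout.

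Most of the Snhg11 signal of cluster 6 sat in few nuclei. Counting nuclei with 5 or more Snhg11 UMIs, a limit set in view of the data, there were 297 among all 67319, and they held 47.8% of the gene's UMIs. Of these, 221 were in cluster 6, where they held 73.2% of the UMIs, and 57 in cluster 3. The highest nucleus had 57 UMIs. By contrast nuclei with 5 or more UMIs held 5.65% of the UMIs of Meg3, 0.880% of Rian and 0.757% of Miat.

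These nuclei had a profile of their own, read from nuclei pooled over samples and genotypes. Those of cluster 6 numbered 63, 26, 40 and 28 in wildtype and 36, 16, 7 and 5 in knockout replicates 1 to 4, so samples weighed unequally. In cluster 6 they led over nuclei without an Snhg11 UMI in Ebf2 (86.3 against 1.39 CPM), the potassium channel gene Kcnc2 (211.6 against 13.7), the cadherin gene Cdh9 (282.1 against 20.5), Inpp4b (261.7 against 20.8) and Reln (280.2 against 24.7), which encodes the secreted protein reelin. Reln is a marker of Cajal-Retzius cells, early neurons of the cortical surface, but the other listed markers of that type, Trp73, Lhx1 and Lhx5, had 0 UMIs in these 221 nuclei. Interneuron markers were mixed in these nuclei of cluster 6. Gad1, Dlx2 and Lhx6 were lower than in nuclei without an Snhg11 UMI, with 2, 5 and 2 UMIs. Gad2 was higher, at 16.7 against 12.8 CPM (18 UMIs). In the rich nuclei of cluster 3, Gad2 (31.9 against 10.96 CPM, 8 UMIs) and Lhx6 (7.98 against 3.18 CPM, 2 UMIs) were higher. Gad1 had 0 UMIs and Dlx2 1 UMI there, too few to give a direction. In cluster 3 the leading genes were Brinp3 (1069 against 34.2 CPM), C130073E24Rik, Gm45321 and Hs6st3, the last of which is also among the 10 leading genes of cluster 6. Reln was higher in the rich nuclei of cluster 3 too, at 391.0 against 35.6 CPM. Meg3 was also higher in the rich nuclei, at 463.0 against 229.6 CPM in cluster 6 and 411.0 against 215.9 CPM in cluster 3, and Miat was at 117.8 against 97.9 CPM in cluster 6. The rich nuclei were deeper, with a median of 4520 UMIs against 2856 in cluster 6 and 4261 against 3026 in cluster 3. Their median deposited doublet score was also higher, at 0.290 against 0.159 in cluster 6 and 0.247 against 0.143 in cluster 3. The part of depth and of doublets in this profile was not tested.

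The rich nuclei were not evenly spread over the samples. They made up 1.00%, 0.405%, 0.603% and 0.541% of nuclei in wildtype and 0.612%, 0.201%, 0.113% and 0.0962% in knockout replicates 1 to 4. In cluster 3 they numbered 14, 6, 9 and 21 in wildtype and 0, 3, 2 and 2 in knockout. The 0 in knockout replicate 1 was of 1116 nuclei, which allows a share of up to 0.269%, for counting error only. Outside the rich nuclei the level still differed in cluster 3, at 22.7 to 38.8 CPM in wildtype and 12.7 to 16.8 CPM in knockout, with no overlap. In cluster 6 the remaining level overlapped, at 36.4 to 66.6 CPM in wildtype and 33.1 to 107.7 CPM in knockout.

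**Figure D5:**
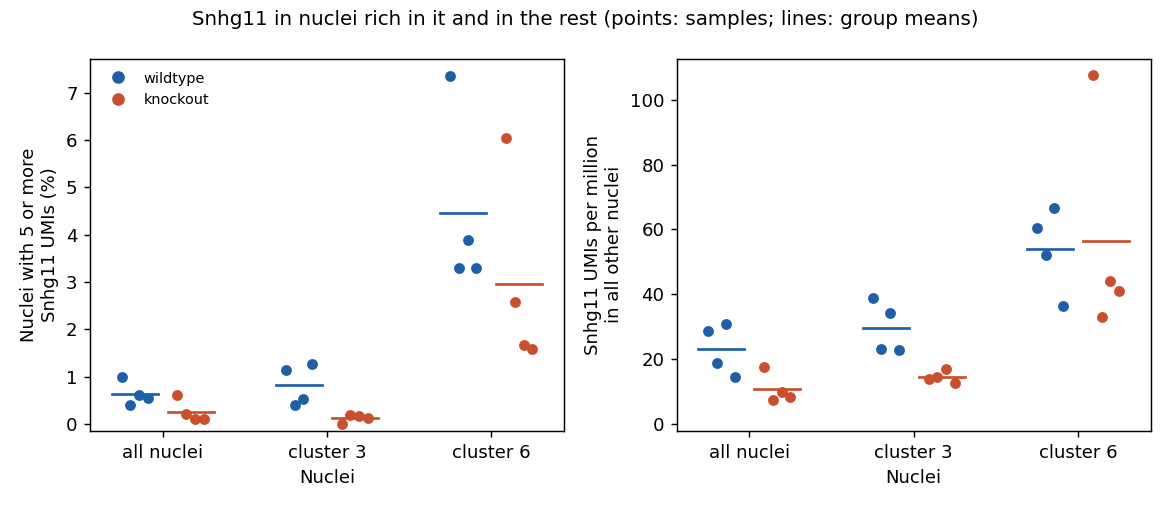
Left, percent of nuclei with 5 or more Snhg11 UMIs, and right, Snhg11 CPM in all other nuclei (vertical axes), for all nuclei, cluster 3 and cluster 6 (horizontal axes), 1 point per sample and a line at each group mean. In cluster 3 the groups are apart in both panels (0.400% to 1.27% against 0% to 0.199%), and in cluster 6 knockout replicate 1 lies far above the other 3 knockout samples.

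Marker sums of cell types were also compared between the groups, but the share of all genes without overlap is not given here. The 5 upper-layer neuron markers summed to 2510 to 2989 CPM over all nuclei in wildtype and 1491 to 2082 CPM in knockout. Over all nuclei the ranges did not overlap for the 4 oligodendrocyte precursor markers (4.54 to 6.99 CPM in wildtype and 1.55 to 2.11 CPM in knockout), the 4 measured microglia markers (5.68 to 7.54 and 4.11 to 5.05 CPM), the 5 endothelial markers (9.152 to 9.60 and 7.34 to 9.146 CPM) and the 3 pericyte markers (7.60 to 8.99 and 6.41 to 6.70 CPM), each lower in the knockout. Ranges overlapped for the next 4 types. The 5 measured interneuron markers summed to 33.4 to 57.4 CPM in wildtype and 14.6 to 41.1 CPM in knockout, the 4 Cajal-Retzius markers to 29.3 to 43.3 and 37.9 to 59.3 CPM, the 4 striatal markers to 41.1 to 78.8 and 31.5 to 42.7 CPM, and the 4 red blood cell markers to 321.3 to 588.2 and 220.2 to 492.2 CPM. Ranges also overlapped for the deep-layer, apical progenitor, intermediate progenitor and general neuron markers. The sums for oligodendrocyte precursors, microglia, endothelial cells and pericytes were so low that such cells cannot be told apart from free RNA. The part of these cell types in the Snhg11 difference was not tested.

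The genes most like Snhg11 across wildtype clusters and samples were Lingo2 (r = 0.910 in wildtype and 0.894 in knockout), Mdfi (0.890), Acvr2a (0.889), Nrgn (0.885) and Brinp3 (0.879). Lingo2, a neuronal membrane protein gene, was at 2918 CPM in cluster 6 and 140.4 CPM in cluster 4.

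Of 21 listed small nucleolar RNA host genes, Snhg11 among them, 14 were in the tables and all 14 were tested over all nuclei. There edgeR called 1, Snhg6, beside 5.26% of all genes, and DESeq2, which called more of all genes, called 2, Snhg6 and Gas5. Snhg6 was lower in the knockout at 21.8 ± 3.5 against 35.8 ± 3.2 CPM (log2 fold change -0.70, edgeR adjusted p = 0.0117). The list's median of -0.10 stood beside 0.00 for all genes. Snhg6 was also called lower in clusters 1, 2, 3, 5 and 6, with log2 fold changes from -0.80 to -0.65, and by edgeR no member but Snhg6 and Snhg11 was called in any of the 8 fits. Around Snhg6 on chromosome 1, 13 of 28 tested genes within 5 megabases were called (46.4%), against 4 of 88 (4.55%) around Snhg11 on chromosome 2.

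Of 22 other long noncoding RNAs of brain tested over all nuclei, edgeR called 1, Lncpint (log2 fold change -0.63, adjusted p = 0.0339), near the 5.26% of all genes. DESeq2, which called more of all genes there, called 5. Per cluster, 20 to 22 were tested and edgeR called 1 to 4, beside 0.789% to 9.09% of all genes. Pantr1, a noncoding RNA gene of neural progenitors and upper-layer neurons, fell from 922.7 ± 104.4 to 476.8 ± 73.1 CPM in cluster 1 (log2 fold change -0.92, edgeR adjusted p = 7.7e-05), and was also lower in clusters 2 and 5. Mir100hg, a host of microRNAs, was lower in clusters 1, 2, 3, 5 and 7, by log2 fold changes from -0.81 to -0.30. In cluster 4, Sox2ot, which overlaps the progenitor factor gene Sox2, was lower (-0.64) and 2610307P16Rik was higher (0.43). The other calls were Dlx6os1 in clusters 1 and 3 (-1.34 and -1.40), Pvt1 in cluster 3 (-1.25), A330008L17Rik and Tunar in cluster 2 (-1.51 and -1.01), and Mir99ahg and Lncpint in cluster 6 (-0.50 and -1.92). Of these calls, 2610307P16Rik was the one in the higher direction.

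Imprinted genes outside the Dlk1-Dio3 domain were also listed. Of 21 tested over all nuclei, edgeR called 2, Airn higher (log2 fold change 0.32) and Peg10 lower (-0.85), beside 5.26% of all genes. DESeq2, which called more of all genes there, called 5. In cluster 1, 3 of 18 were called, Airn (0.66), Cdkn1c (0.34) and Snrpn (0.25), and in cluster 2, 3 of 19, Airn (0.89), Usp29 (0.42) and Snrpn (0.35), each higher in the knockout, beside 2.54% and 3.92% of all genes called higher. Cdkn1c, an inhibitor of cell cycle entry, was also higher in cluster 5 (0.57), where 0.868% of genes were called higher, and Mest was lower in cluster 4 (-0.82). The list's median log2 fold change was 0.04 in cluster 1 and 0.21 in cluster 2, beside 0.00 and 0.01 over all genes.

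To ask whether the genotype difference was larger in neurons than in progenitors, the log2(CPM + 0.5) of cluster 4 was subtracted from the mean of clusters 1 to 3 in each sample. The knockout minus wildtype difference of this contrast was 0.54 for Meg3, 0.44 for Rian, -0.10 for Miat and -0.23 for Snhg11. The exact two-sided permutation test over the 70 arrangements of the 8 samples gave adjusted p-values of 0.343 for Meg3, Rian and Miat and 0.8286 for Snhg11 over the 4 tests. For Snhg11 the contrast was 0.42 ± 0.33 in wildtype and 0.19 ± 0.94 in knockout (SD, n = 4 each), with knockout replicate 1 at -1.10 and the other knockout samples at 0.10 to 0.95. With same-numbered samples as pairs, the Rian contrast was higher in the knockout in 4 of 4 pairs and that of Meg3 in 3 of 4. The exact two-sided sign-flip permutation test over the pairs gave adjusted p-values of 0.50 for Meg3, Rian and Miat and 0.75 for Snhg11, where 4 pairs cannot give an unadjusted p below 0.125. No contrast passed either test, which does not show that neurons and progenitors were alike.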

How the data were processed

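Nuclei were profiled with the 10x 3′ droplet method in 4 wildtype and 4 Pantr2 knockout samples. The submitters' processing notes name kallisto, bustools and the build mm10, with no versions. The authors deposited raw UMI counts per gene and nucleus, a total UMI count, a doublet score with no fixed unit (at most 0.5 in every sample, so no caller was run here), and a cell cycle angle and cluster number per nucleus. Sums of UMIs, over a sample's nuclei and over each of its clusters, entered edgeR 4.0.16 under R 4.3.3 (TMM factors, filterByExpr, the quasi-likelihood test with genotype as the single term), which was first checked on simulated data. DESeq2 1.42.0 was an alternative. The gene without a symbol was left out of tests. Depth was 20446698 to 34083796 UMIs per sample. The permutation tests used scipy 1.17.1. Alternatives were other size factors, totals or filters, DESeq2, a replicate block, and leaving out each sample.

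Over all nuclei, same-numbered wildtype and knockout samples deviated together from their group means (r = 0.179 to 0.398 in the 4 pairs, against -0.356 to 0.287 in the 12 others). The numbers were therefore taken to pair the samples, a pairing that comes from these correlations and the labels' numbers alone. It is uncertain, since wildtype replicate 3 had a higher r with knockout replicate 4 (0.287) than with knockout replicate 3 (0.192). Within clusters some same-numbered pairs had a negative r. For replicates 3 it was -0.091 in cluster 4 and -0.018 in cluster 5, and for replicates 4 -0.011 in cluster 3 and -0.019 in cluster 5. The members, lists and tests were chosen with earlier results of these data known. Named genes were the members, the 5 genes most like each, and every called gene of the lists. Sequences came from RefSeq (GRCm38.p6) and GENCODE M21. All 4 members matched by symbol. The deposited start positions did not match that build and are not printed. No column of another series was present.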

Additional observations from a re-analysis of the deposited data

Results flagged for a closer look

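In each group of 4 samples, a sample was listed when its gap to the nearest other exceeded Dixon's critical share of the group's range. Of 64 such groups (4 RNAs, 8 sets of nuclei, 2 genotypes), 12 held one, where chance lists about 1 in 20. The groups share nuclei and libraries, so they are not independent.

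Wildtype replicate 2 accounted for 8 of the 12. Its Meg3 level was 207.3 CPM over all nuclei (next 113.7), 232.5 CPM in cluster 2 (109.8), 389.8 CPM in cluster 3 (203.4), 52.2 CPM in cluster 4 (32.2), 434.5 CPM in cluster 6 (242.4) and 294.8 CPM in cluster 7 (177.7), each beside the next highest wildtype sample. Its Rian level was 39.4 CPM in cluster 1 (22.9) and 137.2 CPM in cluster 2 (68.2).

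Knockout replicate 1 accounted for the other 4. Its Meg3 level in cluster 5 was 38.0 CPM (next 19.3). Its Snhg11 level was 37.1 CPM over all nuclei (13.96), 10.8 CPM in cluster 5 (4.24) and 307.7 CPM in cluster 6 (100.1).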

How the results depend on the processing

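Snhg11 in clusters 1 and 3 stayed lower in the knockout and past the threshold under every alternative run, leave-one-out included. Same-numbered samples were treated as pairs in fits with a replicate block. The block gave 1344 called genes over all nuclei, 652 in cluster 3, 253 in cluster 6 and 255 in cluster 7, against 732, 400, 83 and 109 without it. With the block Snhg11 was called over all nuclei (-1.37) and in cluster 6 (-0.58), and Rian in cluster 1 (-0.77), and it changed no other call of a member. DESeq2 called 1215 genes over all nuclei, and called Rian over all nuclei (-0.57), in cluster 1 (-0.71) and in cluster 4 (-0.80). Library totals alone gave Rian -0.78 in cluster 1, which was then called, and Miat -0.0122 there, a change of sign. A term for detected Xist, chosen after seeing the data, gave Rian -0.96 in cluster 4, which was then called. Miat in cluster 7 changed sign with that term (0.0359), with totals without the members, Malat1 and mitochondrial genes (0.00113) and with no filter (0.000425). The cause was not tested.

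Leaving out 1 sample gave 263 to 994 called genes over all nuclei, 335 to 647 in cluster 1, 192 to 438 in cluster 3, 316 to 534 in cluster 4, 101 to 189 in cluster 5, 51 to 157 in cluster 6 and 63 to 142 in cluster 7. Meg3 ranged over -0.55 to 0.0235 in cluster 1, -0.45 to 0.0438 in cluster 2, -0.39 to 0.0687 in cluster 3, -1.13 to -0.46 in cluster 4 and -0.26 to 0.23 in cluster 5. Rian ranged over -0.85 to -0.47 in cluster 1, -1.12 to -0.62 in cluster 4 and -0.66 to -0.44 in cluster 5. Miat ranged over -0.0352 to 0.0823 in cluster 1, 0.28 to 0.45 in cluster 5 and -0.0872 to 0.13 in cluster 7. Snhg11 ranged over -1.83 to -1.05 over all nuclei, -1.85 to -1.34 in cluster 2, -2.10 to -0.68 in cluster 4 and -2.42 to -1.72 in cluster 5, and its neuron minus progenitor contrast over -0.48 to 0.20.

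Thinning to 1000 UMIs in place of 1400 lowered the shares of nuclei with a UMI, by construction. Meg3 was then found in 18.7% of cluster 3, and Rian in 11.3%, 2.07% and 8.59% of clusters 3, 5 and 7. Miat was found in 9.39% of all nuclei and in 9.60%, 8.49%, 7.80%, 6.56%, 16.3%, 9.58% and 9.86% of clusters 1 to 7. A planned term for Xist above 10 CPM was not run, because no sample reached that level. Snhg11 rested on 56 to 75 knockout UMIs in clusters 1, 2 and 5, which limits its precision there.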
